A study of Sus scrofa with 18 samples.

Results

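The genes described here are p53 target genes in pig serum: MDM2, CDKN1A, TP53I3, BAX, BBC3, GDF15, SESN1, SESN2 and RRM2B. The group was chosen by the level of TP53I3 in cardiogenic shock (CS) against Baseline, where it was higher, and its members were found as rows of the deposited count table that carry the gene symbol. Of the 9 genes named, 7 have such a row among 31908 genes, of which 16872 carry a symbol. BAX and BBC3 have no row of that symbol and were dropped by this rule. GDF15 has 0 reads in every library, and the other 6 members passed the filter on low counts. BBC3 was found in addition by its gene ID, after its values had been seen, and is described apart from the members.

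Serum came from venous blood of 6 anaesthetized female Danish Landrace pigs, 5 months old, sampled at 3 time points. Baseline serum was drawn before any injury. In CS, microspheres injected into the left main coronary artery had lowered the pump function of the heart. The pVAD samples were drawn under support by an Impella CP, a percutaneous pump that moves blood from the left ventricle into the aorta, in pigs that were still in CS. Each group is thus the same animals under anaesthesia at a later time, with no sham or time control among the samples, so effects of shock and of time cannot be told apart. The libraries used were 6 at Baseline, 5 in CS and 6 on pVAD, 17 in all. CS replicate 6, which the study set aside, was not among them. Replicate numbers 1 to 6 each stand for 1 pig.

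The transcription factor p53 is kept low in unstressed cells by MDM2 and MDM4. DNA damage, signalled by the kinases ATM and CHEK2, as well as nucleotide shortage and oxidative stress, stabilizes it, and p53 then switches on genes that halt the cell cycle, repair DNA, change metabolism or start apoptosis. MDM2 is itself a p53 target and closes a feedback loop. Serum holds no cells of its own, and its messenger RNA comes from cells that released it or broke down, so fewer cells of a type and less RNA per cell cannot be told apart in these values.

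Libraries held between 18229243 and 71488943 counts. The unit of level is CPM, reads of a gene relative to the library total after correction by its TMM factor, and levels are compared within a gene only. A change is a log2 fold change with its standard error (SE) from a single edgeR fit of all 17 libraries. A call needed an unadjusted p below 0.05 together with a change of more than 1.5-fold (log2 0.585). The lowest TMM factors, 0.307 and 0.454, belong to CS replicate 4 and pVAD replicate 6, where the 4 most abundant genes took 71.5% and 57.6% of all counts. In the other 15 libraries that share was 24.2 to 49.8%. A low factor raises the CPM of every gene of a library, so gene levels that turn on these libraries are also given without TMM factors. Sums over markers are given with TMM factors only.

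TP53I3 (ENSSSCG00000008586), the gene for which the group was picked, encodes an enzyme related to quinone oxidoreductases that p53 induces and that is tied to oxidative stress. At Baseline it had 3, 13, 23, 11, 0 and 9 reads in replicates 1 to 6, in CS 97, 15, 22, 81 and 76 reads in replicates 1 to 5, and on pVAD 14, 27, 25, 13, 37 and 4 reads. The high counts sit in CS replicates 1, 4 and 5, whereas CS replicates 2 and 3 lie within the range of Baseline reads. No library of the other time points had more than 37 reads.

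On the CPM scale the Baseline libraries held 0.0755, 0.371, 0.437, 0.245, 0 and 0.305 CPM of TP53I3 in replicates 1 to 6, a mean of 0.239 ± 0.170 (SD, n = 6). The 0 in replicate 5, the shallowest library, allows a level of up to 0.199 CPM by counting error alone. CS libraries held 2.33, 0.359, 0.533, 3.69 and 1.39 CPM, a mean of 1.66 ± 1.38 (SD, n = 5). On pVAD the values were 0.254, 0.572, 0.479, 0.215, 0.804 and 0.197 CPM, a mean of 0.420 ± 0.242 (SD, n = 6).

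**Figure D1:**
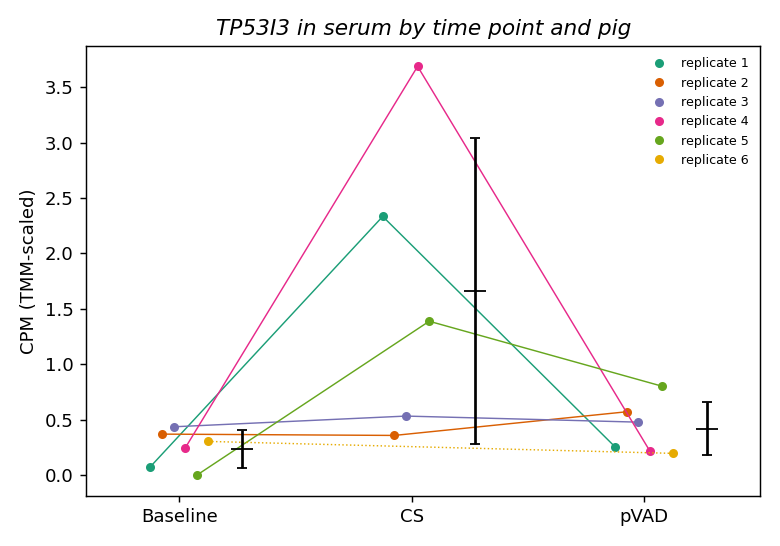
TP53I3 in serum, in TMM-scaled CPM, at the 3 time points. Points are libraries, lines join the libraries of a pig (dotted where its CS library was left out), and bars give the mean ± SD of a time point. CS replicates 1, 4 and 5 sit at 2.33, 3.69 and 1.39 CPM, and all other libraries lie between 0 and 0.804 CPM.

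Mean TP53I3 was thus highest in CS, then on pVAD, then at Baseline, and the ranges of the 3 time points overlap. CS was above Baseline by log2 2.74 (SE 0.83), with a higher value in 4 of 5 pigs, and the ratio of the medians was 5.06. This difference chose the group and is given as a description. It lay between log2 2.23 and 3.00 when each library was left out in turn, the lowest without CS replicate 4. On pVAD the level was log2 -1.96 (SE 0.81) from CS, lower in 4 of 5 pigs but in 3 of 5 without TMM factors. From Baseline to pVAD it was log2 0.78 (SE 0.78), higher in 4 of 6 pigs (5 of 6 without TMM factors). These contrasts use the CS or Baseline libraries that chose the gene, so they are descriptions too. The pVAD value fell short of the threshold with the pig as a block (-1.90) and without CS replicate 4 (-1.45).

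Marker sums of blood cells in the 3 CS libraries high in TP53I3 are set beside the other libraries here. CS replicate 4 had the lowest TMM factor, 0.307, which raises all its marker sums. Over the leukocyte markers with a row (7 of 8 listed) it summed to 570.8 CPM. The sums were 103 to 164 CPM at Baseline, 109 to 144 CPM in the other CS libraries and 106 to 267 CPM on pVAD. A sum without TMM factors is the sum given here times the TMM factor of its library. On that scale CS replicate 4 falls below CS replicate 2, which had 140 CPM and a factor of 1.49. The place of CS replicate 4 as the highest thus turns on the scaling. CS replicate 1 had 56.3 CPM over the platelet markers (3 of 6 with a row, GP1BB at 0), where the other CS libraries had 8.44 to 18.5 CPM, Baseline 8.38 to 35.3 CPM and pVAD 3.75 to 103 CPM. Of the platelet markers 2 passed the filter, GP9 among them. GP9 averaged 2.75, 1.69 and 1.13 CPM at Baseline, in CS and on pVAD. The sums of 56.3 and 103 CPM therefore came mostly from the other gene. CS replicate 5 had 753 CPM over the red cell markers (5 of 6 with a row, ALAS2 at 0), where the other CS libraries had 322 to 467 CPM, Baseline 276 to 817 CPM and pVAD 167 to 749 CPM. The pig of replicate 5 held the highest red cell sums at Baseline and on pVAD too, at 817 CPM with 0 reads of TP53I3 and 749 CPM with 37 reads. The part of leukocyte, platelet and red cell RNA in the level of TP53I3 was not tested. Without TMM factors mean TP53I3 was 0.268 CPM at Baseline, 1.19 CPM in CS and 0.505 CPM on pVAD, in the same order, and CS replicates 1, 4 and 5 were again above all other libraries.

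For markers of the other sources the sums overlapped between time points. Hepatocyte markers (6 of 6 with a row, FGB at 0) summed to 33.6 to 56.2 CPM at Baseline, 28.1 to 51.9 CPM in CS and 31.7 to 54.2 CPM on pVAD. Cardiomyocyte markers (4 of 8 with a row, none at 0) summed to 14.3 to 25.8 CPM, 18.4 to 24.1 CPM and 12.1 to 22.0 CPM in the same order. For endothelium (4 of 5 with a row, none at 0) the sums were 91.8 to 115 CPM, 74.4 to 109 CPM and 95.9 to 111 CPM, the lowest again in CS replicate 4. Among all these markers KDR, a growth factor receptor of endothelium, was called lower in CS (log2 -0.62, SE 0.22) and GP9, a platelet membrane protein, lower on pVAD than at Baseline (log2 -1.29, SE 0.58), both with an edgeR adjusted p of 1.

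The other members did not share the pattern of TP53I3. In CS vs. Baseline 1 of the 6 members tested, TP53I3 itself, was called higher and 0 lower, where 2.82% of all 26146 genes were called (1.59% higher, 1.24% lower). The rule used this contrast, so nothing is read from that count. The median change was log2 0.015 over the 6 members and log2 -0.0049 over all genes, with 3 members above 0 and 3 below. In pVAD vs. CS 0 members were called higher and 1 lower, again TP53I3, where 2.43% of all genes were called (1.11% higher, 1.32% lower), and the medians were log2 0.068 and 0.018. In pVAD vs. Baseline 0 members were called, with 0 at an unadjusted p under 0.05 in edgeR, where 0.834% of all genes were called (0.444% higher, 0.390% lower), and the medians were log2 0.13 and 0.014. The groups overlapped for each of the 6 members in each comparison, where 0.21%, 0.233% and 0.0688% of all genes had groups that did not.

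CDKN1A (ENSSSCG00000001565) encodes p21, the inhibitor of cyclin-dependent kinases through which p53 halts the cell cycle. Its reads were 92, 35, 125, 62, 3 and 50 at Baseline, 67, 25, 96, 17 and 99 in CS, and 178, 158, 100, 184, 105 and 38 on pVAD. It was sparse at each time point, with Baseline replicate 5 the lowest. Baseline levels ran from 0.199 to 2.37 CPM (mean 1.49 ± 0.828 SD, n = 6), CS levels from 0.598 to 2.33 CPM (1.42 ± 0.725, n = 5) and pVAD levels from 1.87 to 3.35 CPM (2.62 ± 0.672, n = 6).

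With TMM factors the pVAD libraries of CDKN1A lie in the upper part of the Baseline and CS ranges or above them, and each pair of groups overlaps. Replicates 1, 2 and 4, at 3.23, 3.35 and 3.04 CPM, are above every Baseline and CS library. CS differed from Baseline by log2 -0.075 (SE 0.53). The difference from CS to pVAD was log2 0.87 (SE 0.54; higher in 4 of 5 pigs; edgeR adjusted p = 0.999), and from Baseline to pVAD log2 0.80 (SE 0.51; higher in 5 of 6 pigs; adjusted p = 1). Neither reached the threshold, and leaving out each library in turn gave 0.68 to 1.12 and 0.58 to 0.98. Without TMM factors the means of CDKN1A were 1.66, 1.41 and 3.28 CPM, with pVAD again the highest. On that scale pVAD replicate 6 was at 0.849 CPM, the lowest on pVAD, and pVAD was above Baseline in 4 of 6 pigs.

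RRM2B (ENSSSCG00000036139) encodes the p53-induced subunit of ribonucleotide reductase, the enzyme that makes deoxynucleotides for DNA repair. In CS replicates 1 to 5 it held 5.73, 4.38, 5.92, 3.28 and 7.58 CPM, and in the same pigs at Baseline 6.29, 5.33, 6.63, 8.16 and 8.67 CPM. The level was lower in CS in all 5 pigs on this scale but in 3 of 5 without TMM factors, where replicates 2 and 5 were higher in CS, and the ranges overlap. The means were 7.22 ± 1.33 CPM at Baseline (SD, n = 6), 5.38 ± 1.63 CPM in CS (n = 5) and 5.62 ± 1.93 CPM on pVAD (n = 6).

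The difference in RRM2B between CS and Baseline was log2 -0.42 (SE 0.31). Between pVAD and Baseline it was log2 -0.36 (SE 0.29; edgeR adjusted p = 1), lower in 5 of 6 pigs but in 3 of 6 without TMM factors. From CS to pVAD it was log2 0.062 (SE 0.30; adjusted p = 0.999). Within a pig and with TMM factors, the CS value lay closest to Baseline in replicates 1 and 3 and farthest from it in replicate 4. Without TMM factors replicate 4 was again the farthest, from 8.55 CPM at Baseline to 1.01 CPM in CS. Replicate 3, from 9.70 to 5.47 CPM, was then next to the farthest.

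MDM2 (ENSSSCG00000000488), the ubiquitin ligase that marks p53 for breakdown, was found at 5.47 to 16.6 CPM at Baseline (median 10.6 CPM), 5.94 to 15.0 CPM in CS (median 10.3 CPM) and 6.25 to 22.8 CPM on pVAD (median 10.5 CPM). The medians are close, and the spread within each time point is wider than any difference between them. Means were 10.6 ± 3.70 (SD, n = 6), 11.2 ± 3.75 (n = 5) and 11.8 ± 5.76 CPM (n = 6). CS differed from Baseline by log2 0.070 (SE 0.32), pVAD from CS by log2 0.073 (SE 0.32; edgeR adjusted p = 0.999) and pVAD from Baseline by log2 0.14 (SE 0.31; adjusted p = 1). The sign of the pVAD differences rests on pVAD replicate 6, without which they are -0.22 from CS and -0.15 from Baseline.

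SESN1 (ENSSSCG00000004390) and SESN2 (ENSSSCG00000029438) encode sestrins, stress proteins that restrain the growth kinase mTORC1 and limit oxidative damage. SESN1 is a classical p53 target, and SESN2 also answers to other stress pathways. SESN1 was found at 5.89 to 17.5 CPM at Baseline, 5.46 to 15.6 CPM in CS and 6.36 to 16.4 CPM on pVAD, with means of 10.1 ± 4.12 (SD, n = 6), 9.85 ± 4.05 (n = 5) and 11.004 ± 4.24 CPM (n = 6). Its changes were log2 -0.039 (SE 0.33) for CS vs. Baseline, 0.16 (SE 0.33; edgeR adjusted p = 0.999) for pVAD vs. CS and 0.12 (SE 0.31; adjusted p = 1) for pVAD vs. Baseline. The 3 ranges nearly coincide.

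SESN2 in CS held 17.8, 19.3 and 17.98 CPM in replicates 1, 3 and 4 and 9.71 and 9.39 CPM in replicates 2 and 5. At Baseline it ran from 7.99 to 15.8 CPM (mean 12.2 ± 3.25 SD, n = 6) and on pVAD from 7.29 to 17.2 CPM (11.8 ± 3.46, n = 6), around a CS mean of 14.8 ± 4.87 (n = 5). CS replicates 1, 3 and 4 lie above every Baseline and pVAD library on this scale, and replicates 2 and 5 lie within their ranges. Without TMM factors CS replicate 4 had the lowest SESN2 of the 5 CS libraries, 5.53 CPM against 12.4 to 17.9 CPM. The changes of SESN2 were log2 0.28 (SE 0.27) for CS vs. Baseline, -0.33 (SE 0.27; edgeR adjusted p = 0.999) for pVAD vs. CS and -0.047 (SE 0.26; adjusted p = 1) for pVAD vs. Baseline. Without TMM factors the means were 12.5, 13.0 and 14.9 CPM, so pVAD and not CS was then the highest.

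GDF15 (ENSSSCG00000034260), a secreted stress hormone of the TGF-beta family, had 0 reads in all 17 libraries, which allows a level of up to 0.0496 to 0.199 CPM depending on the library. BBC3 encodes PUMA, which starts apoptosis at mitochondria, and its gene ID (ENSSSCG00000003112) has a row with no symbol. It was found at 1.80 to 18.4 CPM at Baseline (mean 9.44 ± 6.05 SD, n = 6), 7.63 to 28.9 CPM in CS (14.1 ± 8.60, n = 5) and 1.72 to 15.7 CPM on pVAD (9.06 ± 5.13, n = 6). The CS maximum belongs to CS replicate 4, which without TMM factors was the CS minimum (8.88 CPM against 10.2 to 12.03 CPM). The minima at Baseline and on pVAD belong to the same pig, replicate 6, on both scales. The changes of BBC3 were log2 0.57 (SE 0.50), -0.63 (SE 0.50; edgeR adjusted p = 0.999) and -0.058 (SE 0.48; adjusted p = 1) in the order above, and none reached the threshold. Without CS replicate 4 the CS vs. Baseline value was log2 0.13, and without CS replicate 4 and pVAD replicate 6 the pVAD vs. CS value was log2 0.023.

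**Figure D2:**
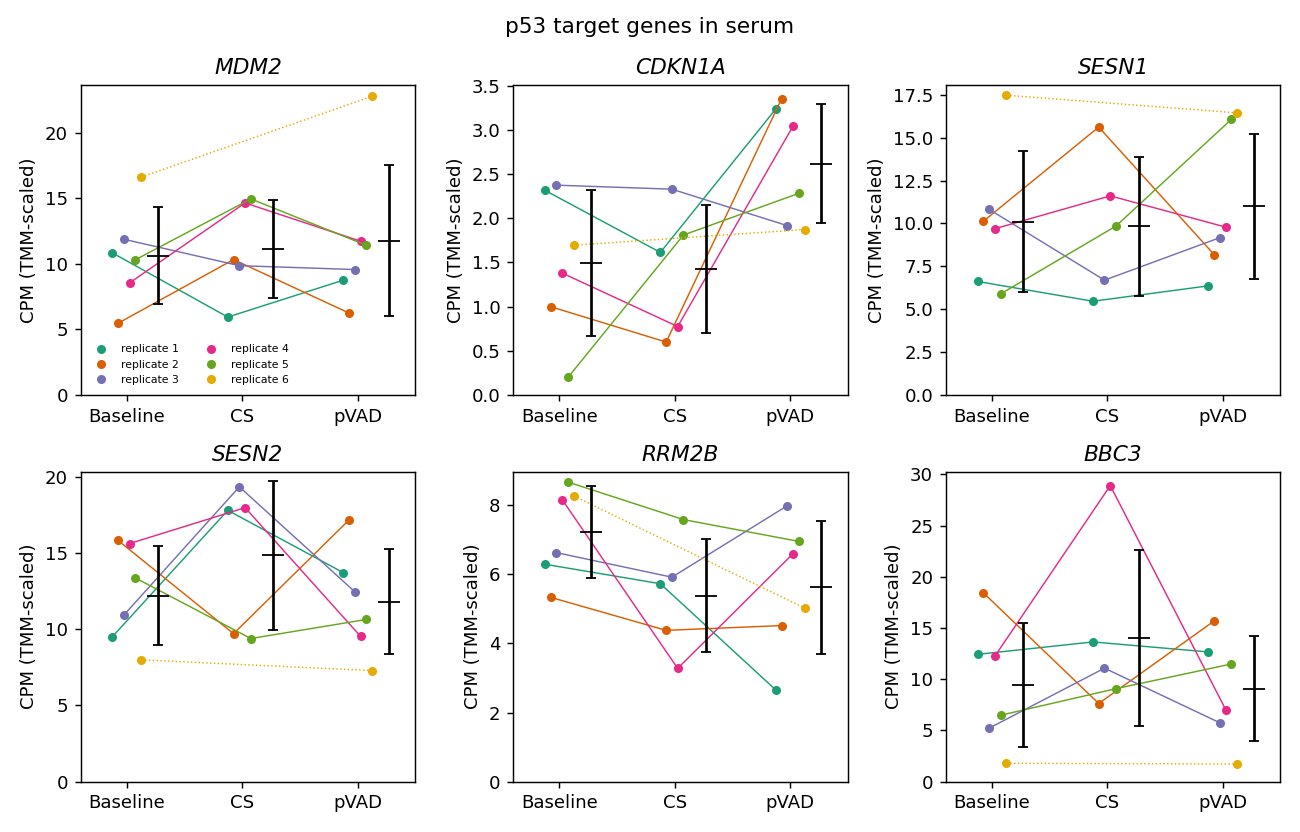
MDM2, CDKN1A, SESN1, SESN2, RRM2B and BBC3 in serum, in TMM-scaled CPM (each panel with its own linear axis from 0). Points are libraries coloured by replicate, lines join the libraries of a pig, dotted where its CS library was left out, and bars give mean ± SD. The groups overlap in every panel, RRM2B is lower in CS than at Baseline in 5 of 5 pigs (3 of 5 without TMM factors), and replicate 6 is lowest in BBC3 at 1.80 and 1.72 CPM.

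Of the regulators of p53, MDM4, ATM and CHEK2 were looked at whatever their values, and none was called. MDM4 (ENSSSCG00000015284), which holds p53 inactive, averaged 6.15 ± 3.18, 8.07 ± 3.80 and 7.39 ± 3.73 CPM at the 3 time points, with 1.32 CPM in CS replicate 1 against 9.23 to 10.5 CPM in the other 4 CS libraries. ATM (ENSSSCG00000025606), the kinase that senses double-strand breaks, averaged 20.5 ± 5.07, 22.9 ± 4.74 and 23.7 ± 8.96 CPM. CHEK2 (ENSSSCG00000034864), the kinase that ATM activates, averaged 11.4 ± 3.96, 11.4 ± 3.18 and 9.55 ± 2.14 CPM. All 9 changes of these regulators lay between log2 -0.26 and 0.39, and the groups overlapped for each.

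**Figure D3:**
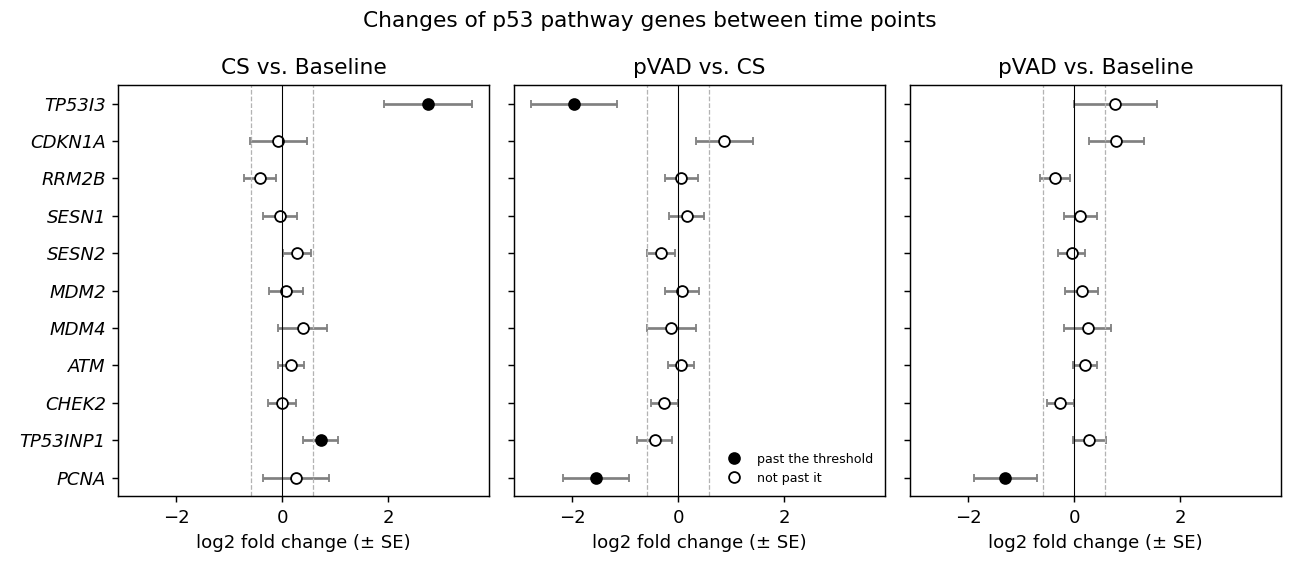
Log2 fold changes ± SE of TP53I3, CDKN1A, RRM2B, SESN1, SESN2 and MDM2, of MDM4, ATM and CHEK2, and of the pathway genes TP53INP1 and PCNA, in the 3 comparisons. Filled points passed the threshold and dashed lines mark the 1.5-fold limits. TP53I3 is at 2.74 in CS vs. Baseline and -1.96 in pVAD vs. CS, and PCNA at -1.55 in pVAD vs. CS and -1.29 in pVAD vs. Baseline.

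The libraries of replicate 6, the pig without a CS library, were the lowest of the 6 at Baseline and of the 6 on pVAD in SESN2 and BBC3, with and without TMM factors. With TMM factors they were also the highest of both in MDM2, SESN1, MDM4 and ATM, but this rank on pVAD turned with the scaling. Without TMM factors pVAD replicate 6 was the lowest of 6 in SESN1 (7.46 CPM) and ATM (18.2 CPM) and next to the lowest in MDM2 (10.3 CPM) and MDM4 (5.79 CPM), while Baseline replicate 6 was still the highest in SESN1 and MDM4 and next to the highest in MDM2 and ATM. The balance can be given free of scaling as a ratio of reads within a library, a measure chosen after these values had been seen. SESN1 to SESN2 was 2.19 and 2.26 in the libraries of this pig, and 0.307 to 1.61 in the other 15 libraries.

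Medians of SESN1 to SESN2 were 0.668 at Baseline, 0.646 in CS and 0.881 on pVAD. The ratio spread more between libraries of a time point than between these medians. The platelet marker sum of this pig was 19.1 CPM at Baseline and 103 CPM on pVAD, the latter mostly from a gene other than GP9. The part of platelet RNA in the ratio was not tested. Its TMM factors, 1.02 and 0.454, cancel in a ratio of reads within a library. MDM2 to MDM4 did not set the pig apart: its extremes were 1 in CS replicate 3 and 4.49 in CS replicate 1.

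**Figure D4:**
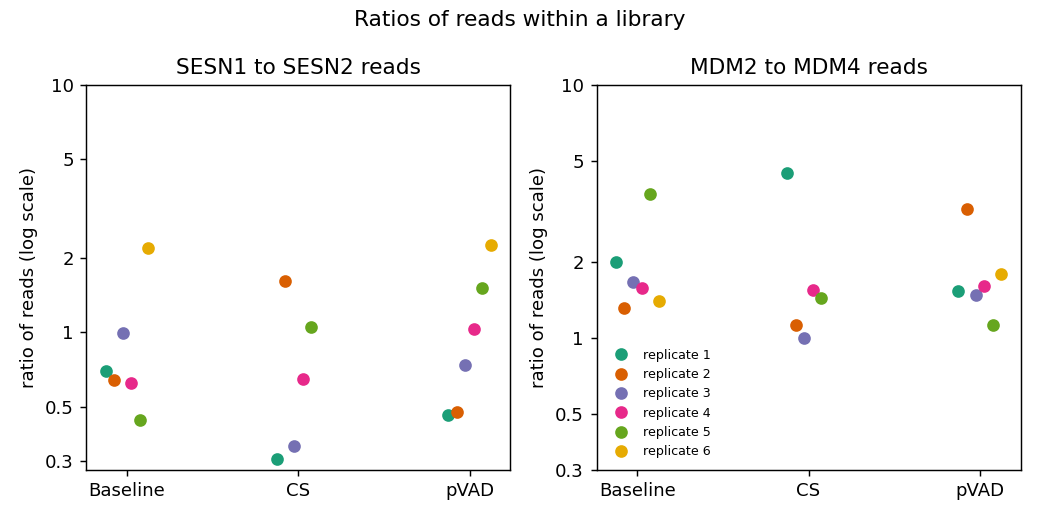
Ratios of SESN1 to SESN2 reads and of MDM2 to MDM4 reads in each of the 17 libraries, on a log axis, coloured by replicate. Replicate 6 holds the highest SESN1 to SESN2 ratio at Baseline and on pVAD (2.19 and 2.26), but not the highest MDM2 to MDM4 ratio. CS replicate 6 was left out.

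Beyond the members, 91 further genes of the pathway were listed by role, from general knowledge and with earlier results of these data known. Of these, 79 have a row and 75 passed the filter. In CS vs. Baseline 1 was called higher and 0 lower, in pVAD vs. CS 0 and 1, and in pVAD vs. Baseline 0 and 1, where 2.82%, 2.43% and 0.834% of all genes were called. A count of 1 gene among 75 does not set the list apart from this background. The median changes over the 75 were log2 0.069, -0.042 and 0.012, beside -0.0049, 0.018 and 0.014 over all genes tested. Unadjusted p under 0.05 in edgeR was reached by 2, 2 and 1 of them, and no adjusted p under 0.05 by any.

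TP53INP1, a p53-induced protein that supports p53 phosphorylation and autophagy, was the gene called higher in CS. It held 11.3, 5.24, 4.70, 11.6 and 4.70 CPM in CS replicates 1 to 5 and 3.31 to 7.70 CPM at Baseline, with means of 7.50 ± 3.599 (SD, n = 5) and 4.51 ± 1.64 CPM (n = 6). CS replicates 1 and 4 lie above all Baseline libraries, and the other 3 lie within their range. Without TMM factors CS replicate 4 held 3.55 CPM, the lowest of the CS libraries, and TP53INP1 was higher in CS in 3 of 5 pigs. The change was log2 0.73 (SE 0.33), followed by -0.44 (SE 0.33; edgeR adjusted p = 0.999) from CS to pVAD, where the mean was 5.51 ± 1.21 CPM (n = 6). It fell short of the threshold with the pig as a block (0.69), when only Baseline and CS libraries were fitted (0.73), and without any of Baseline replicates 1, 3, 4, 5 and 6 or CS replicates 1 and 4 (0.52 to 0.73).

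PCNA, the sliding clamp that holds DNA polymerases on DNA in replication and repair, was the gene called lower on pVAD. It had 101, 11, 155, 125, 38 and 90 reads at Baseline, 56, 64, 84, 102 and 250 in CS, and 4, 33, 52, 79, 61 and 28 on pVAD. Its level was 2.36 ± 1.02 CPM at Baseline (SD, n = 6), 2.83 ± 1.65 CPM in CS (n = 5) and 0.963 ± 0.507 CPM on pVAD (n = 6). pVAD was lower than CS in 5 of 5 pigs (4 of 5 without TMM factors) and lower than Baseline in 5 of 6, and the ranges touch, since the highest pVAD value was 1.38 CPM and the lowest CS value 1.35 CPM.

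PCNA changed by log2 -1.55 (SE 0.62; edgeR adjusted p = 0.999) from CS to pVAD and by log2 -1.29 (SE 0.60; adjusted p = 1) from Baseline to pVAD. The first call was lost without CS replicate 4 (-1.31) or CS replicate 5 (-1.31), the libraries with the highest PCNA, at 4.64 and 4.57 CPM. The other was lost without any of Baseline replicates 1, 3, 4, 5 and 6 or pVAD replicates 1, 2 and 3 (-1.31 to -1.05), and with only Baseline and pVAD libraries in the fit (-1.30).

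By role, the 11 apoptosis targets tested had a median of log2 0.27 in CS vs. Baseline with 9 above 0 and 2 below, and of -0.25 in pVAD vs. CS with 3 above and 8 below, and TP53INP1 was the only one called. Over all genes 49.3% and 52.0% of the changes were above 0, with medians of log2 -0.0049 and 0.018. These comparisons share the CS libraries, and the direction counts were not tested. PMAIP1, which encodes the mitochondrial death protein NOXA, was at log2 0.39 (SE 1.02), 0.17 (SE 1.02) and 0.56 (SE 0.98) in the 3 comparisons. Its mean level was 0.681 to 1.01 CPM. BAK1, a pore-forming protein of the mitochondrial membrane, was at -0.23, 0.040 and -0.19. FAS, the death receptor, was at 0.033, -0.039 and -0.0068. None of these was called, and they were named after their values had been seen.

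Among 9 cell cycle arrest targets tested 0 were called, with 0 at an unadjusted p under 0.05 in edgeR in each comparison. The members of the GADD45 family, stress sensors that bind PCNA and p21, differed in sign in CS vs. Baseline. The values were log2 -0.57 (SE 0.58) for GADD45A, 0.85 (SE 0.63) for GADD45B and 0.21 (SE 0.67) for GADD45G. The 7 DNA repair and nucleotide targets had medians of log2 -0.14, -0.33 and 0.063, and apart from PCNA none was called. DDB2, which recognizes ultraviolet damage, was at 0.55 (SE 0.26) in CS vs. Baseline, below the fold limit at an unadjusted p under 0.05. GADD45 genes and DDB2 were also named after their values had been seen.

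The 12 metabolic, antioxidant and autophagy targets had medians of log2 0.19, 0.033 and 0.055, the 17 RNA binding, secreted and membrane targets of -0.018, 0.043 and 0.0062, and the 19 regulators of p53 of -0.00069, -0.012 and 0.069. In these 3 lists 0 genes were called in any comparison, with 0 at an unadjusted p under 0.05 in edgeR. SCO2, which helps assemble cytochrome oxidase, had the highest values of the metabolic targets, log2 0.89 (SE 1.25) and 0.98 (SE 1.20) against Baseline, at a mean level of 0.167 to 0.342 CPM. PPP1R13L, an inhibitor of p53, had the lowest of the regulators on pVAD, log2 -1.26 (SE 0.80) from CS and -0.54 (SE 0.76) from Baseline. Its mean level was 0.970 to 2.35 CPM.

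**Figure D5:**
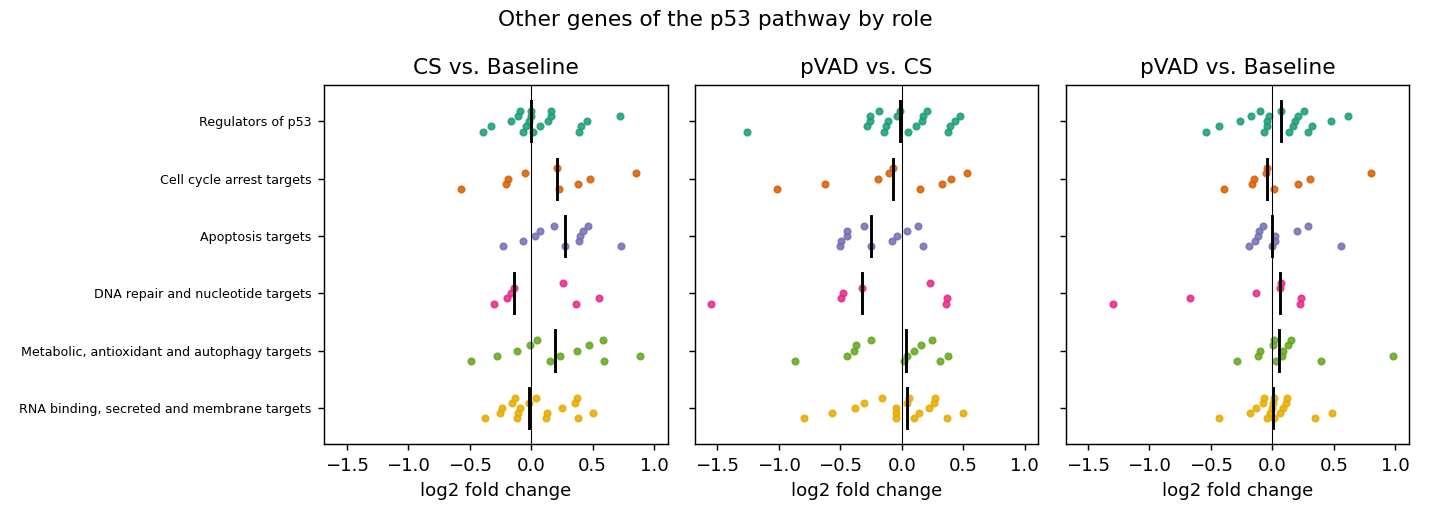
Log2 fold changes of the 75 further p53 pathway genes tested, by role, in the 3 comparisons. Each point is a gene and each bar the median of its list. Medians lie between -0.33 and 0.27, and the points farthest below 0 are PCNA at -1.55 and -1.29.

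Genes whose pattern over the 17 libraries was most like that of TP53I3 were found by the root mean square difference of standardised log2 CPM. The search covered 13845 genes that carry a symbol and average 10 or more reads in a library. Among the 5 closest were ATP6V0A1 (0.556), JAML (0.580), TEX26 (0.638) and FYN (0.662). ATP6V0A1 encodes a subunit of the vacuolar proton pump, JAML a leukocyte adhesion molecule and FYN a tyrosine kinase of the Src family. Their mean levels at Baseline, in CS and on pVAD were 17.98, 23.9 and 18.1 CPM for ATP6V0A1, 11.5, 16.4 and 14.0 CPM for JAML, and 68.7, 90.5 and 78.5 CPM for FYN.

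TEX26 stood at 10.9, 13.3 and 10.6 CPM. No other member was near TP53I3 in this order: SESN2 was place 1458 of 13845 and RRM2B place 11872, with CDKN1A at 3242, SESN1 at 4790 and MDM2 at 8394 between them. The order is a description of these libraries and depends on which are used, since none of the 5 closest genes was among the closest 5 with all 18 libraries.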

How the data were processed

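The authors sequenced serum RNA after a low-input library preparation. Per the labels and the study's methods, the authors trimmed reads with Trim Galore 0.4.4, aligned them with STAR 2.4.2a, assigned them to Ensembl genes with featureCounts (R 3.6.0) and took symbols from biomaRt. The deposited values are raw counts. The genome build and the strand setting are not given in the sources used here, so no coordinates are printed.

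Counts were analysed with R 4.3.3 and edgeR 4.0.16: a filter of 5 reads summed over the 17 libraries (26146 genes), TMM factors, and the quasi-likelihood test in a single fit whose only term was the time point. Benjamini-Hochberg adjustment ran over all genes tested, and all p-values are two-sided. They set a difference against the spread between libraries of a time point and do not use the pairing by pig. The log2 CPM used for likeness had a prior count of 2. Limits for a count of 0 stand for 3 counts and cover counting error only. Depth ranged from 18229243 to 71488943 counts per library.

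Members with a row, MDM4, ATM and CHEK2 were named whatever their values, and further pathway genes where called. Some genes of these lists are not reported here by name. Members and lists were chosen with earlier results of these data known. For 768 genes without a symbol, BBC3 among them, the name came from an ID table.

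The pig behind each library stands in the authors' sample sheet, so replicate numbers pair the samples. With each gene set to its time point mean, the 16 pairs of libraries of a pig had r from -0.249 to 0.604 (median 0.135), and the 80 pairs across pigs from -0.511 to 0.404 (median -0.0205). Alternatives were DESeq2 1.42.0, RLE size factors, no filter, filterByExpr, the pig as a block, fits of only the time points compared, all 18 libraries, leaving out each library, and CPM without TMM factors. A fit without CS replicate 4 and pVAD replicate 6 was added after seeing the data.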

Additional observations from a re-analysis of the deposited data

Results flagged for a closer look

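Of 36 sets of 5 or 6 libraries (a gene at a time point), 6 held a library far from the others. The cut-off is passed by about 1 in 20 independent sets of normally distributed values. The sets here share libraries, so their count cannot be set against that rate. MDM2 reached 22.8 CPM in pVAD replicate 6, BBC3 28.9 CPM in CS replicate 4 and CHEK2 16.9 CPM in CS replicate 1, each far above the rest of its group. Without TMM factors none of these was the highest of its group: MDM2 was at 10.3 CPM, next to the lowest, BBC3 at 8.88 CPM, the lowest, and CHEK2 at 14.2 CPM, next to the highest. MDM4 was at 1.32 CPM in CS replicate 1, far below the other CS libraries, and without TMM factors at 1.11 CPM, again the lowest. TP53INP1 was at 7.70 CPM and PCNA at 0.314 CPM in Baseline replicate 2, the former above and the latter below the other Baseline libraries on both scales.

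The left-out CS replicate 6 held 2484066 counts and 2891 genes with a read. In that library MDM2 had 736 reads, or 296.3 CPM by library total without TMM factors, where the highest Baseline library had 17.4 CPM. CDKN1A had 11 reads, or 4.43 CPM, where the highest Baseline library had 3.48 CPM. TP53I3, SESN1, SESN2, RRM2B, BBC3, MDM4, ATM and CHEK2 had 0 reads there.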

How the results depend on the processing

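Of 900 recomputed changes of 12 genes under 25 alternatives, 810 kept their direction and their side of the threshold. Another 29 fell below it, 1 rose past it and 60 took the other sign, 59 of these uncalled on both sides. Most of the 900 were never called: only the called changes of TP53I3, TP53INP1 and PCNA could fall below the threshold. With all 18 libraries the median of all genes moved to -0.21 in CS vs. Baseline and 0.22 in pVAD vs. CS. In that fit MDM2 and TP53I3 made 2 members called in CS vs. Baseline, MDM2 was called lower in pVAD vs. CS (-2.42), TP53I3 was no longer called in that comparison (-1.76), and CDKN1A (0.30) and ATM (-0.087) in CS vs. Baseline and MDM4 (0.096) in pVAD vs. CS took the other sign. The pathway counts were then 3, 3 and 0, RPL11 among those called in the first and second comparisons. With the pig as a block, 0 members were called in pVAD vs. CS and 0 pathway genes in CS vs. Baseline. Under this pairing MDM2 (-0.19) and ATM (-0.14) in pVAD vs. CS, SESN1 (0.093) and CHEK2 (0.13) in CS vs. Baseline and BBC3 (0.016) in pVAD vs. Baseline took the other sign, and no other call changed. Fits of only the time points compared called 0 pathway genes in CS vs. Baseline and 0 in pVAD vs. Baseline. Without CS replicate 4 and pVAD replicate 6 together, 0 members were called in pVAD vs. CS and 2 pathway genes, PCNA among them, in pVAD vs. Baseline. The other sign then appeared for MDM2 (-0.046, -0.11 and -0.15 in the 3 comparisons), CDKN1A (0.075) and CHEK2 (0.0011) in CS vs. Baseline, RRM2B (-0.040), BBC3 (0.023) and ATM (-0.14) in pVAD vs. CS, and SESN1 (-0.029), SESN2 (0.058), BBC3 (0.15) and ATM (-0.0028) in pVAD vs. Baseline.

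With each library left out in turn the members called ranged from 0 to 1 in pVAD vs. CS, 0 without CS replicate 4, and the pathway genes called from 0 to 3, 0 to 4 and 0 to 2 in the 3 comparisons. Changes whose sign turned ranged as follows. In CS vs. Baseline MDM2 ranged from -0.063 to 0.24, CDKN1A from -0.32 to 0.12, SESN1 from -0.27 to 0.19 and CHEK2 from -0.19 to 0.16. In pVAD vs. CS MDM2 ranged from -0.22 to 0.20, RRM2B from -0.070 to 0.22, MDM4 from -0.40 to 0.070 and ATM from -0.16 to 0.17. In pVAD vs. Baseline MDM2 ranged from -0.15 to 0.32, SESN1 from -0.029 to 0.34, SESN2 from -0.18 to 0.058, BBC3 from -0.28 to 0.25 and ATM from -0.0028 to 0.35. Over all genes the calls were 738, 635 and 218, and in the last comparison 110 after filterByExpr. Without CS replicate 1 they were 486 and 388 in the first and second comparisons, without CS replicates 2 and 5 they were 999 and 960 in pVAD vs. CS, and without Baseline replicate 6 they were 422 in pVAD vs. Baseline. The cause of these shifts was not tested. Depth limits sparse genes: TP53I3, CDKN1A and PCNA had as few as 0, 3 and 4 reads in a library.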
